A study of Mus musculus with 8 samples.

Results

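MicroRNAs of the miR-200 family, which mark epithelial cells in many tissues, and of the miR-183 cluster were followed in mouse sperm small RNA. They were chosen by their mature names: mmu-miR-200a-3p, mmu-miR-200b-3p, mmu-miR-200c-3p, mmu-miR-141-3p and mmu-miR-429-3p of the miR-200 family, and mmu-miR-183-5p, mmu-miR-96-5p and mmu-miR-182-5p of the miR-183 cluster. The prefix for mouse is left out of the names from here on. Of these 8 members, 7 were analysed, among 952 features of the miRNA class and 1010917 features in all. miR-200c-3p was not analysed here. The libraries came from spermatozoa of C57BL/6J mice, 4 labelled EtOH-Cessation and 4 labelled Control-Cessation. The series title places both groups after a month without alcohol, so the comparison asks what differed in sperm small RNA once exposure had ended. Every label says spermatozoa, although the series-level design names caput portions of the epididymis, its first segment. The labels give no age, dose or route. They do not say whether each library is a separate animal, so every p-value here reflects only library-to-library spread, which may be technical.

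MicroRNAs are short RNAs that guide silencing proteins to messenger RNAs through their seed, bases 2 to 8. The miR-200 family is best known for repressing Zeb1 and Zeb2, transcription factors that switch off epithelial genes such as the adhesion gene Cdh1, and these factors in turn repress the miR-200 genes. The miR-183 cluster is transcribed as one precursor and is best known from sensory cells of the ear and eye and from secretory epithelium. Sperm acquire part of their small RNA in the epididymis, whose epithelium releases vesicles that fuse with passing sperm.

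The mature sequences are shown because the members differ by few bases and fall into seed groups that the counts can be read against. They are RefSeq sequences on build GRCm38.p6, printed 5′ to 3′ with the seed in capitals, and all 8 lie on the minus strand.
miR-200b-3p: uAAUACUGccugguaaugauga
miR-200c-3p: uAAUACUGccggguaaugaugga
miR-429-3p: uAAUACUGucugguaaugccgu
miR-200a-3p: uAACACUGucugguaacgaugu
miR-141-3p: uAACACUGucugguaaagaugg
miR-183-5p: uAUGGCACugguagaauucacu
miR-96-5p: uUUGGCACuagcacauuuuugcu
miR-182-5p: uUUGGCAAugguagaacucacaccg

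The first 3 share the seed AAUACUG and the next 2 the seed AACACUG. Counted from the 5′ end, these seeds differ by the single substitution U4C from miR-200b-3p to miR-141-3p. miR-200a-3p and miR-141-3p are the same at 20 of 22 positions and differ by C17A and U22G. miR-200b-3p and miR-200c-3p are also the same at 20 of the 22 positions compared and differ by U11G and A22G. The 3 members of the miR-183 cluster each have a seed of their own, with A2U from miR-183-5p to miR-96-5p and C8A from miR-96-5p to miR-182-5p. The sources used here do not state how reads matching several places were assigned, so the split between the near-identical members is uncertain.

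The members are encoded at separate loci on chromosomes 4 and 6. miR-200b-3p (chr4:156055685-156055706), miR-200a-3p (chr4:156054911-156054932) and miR-429-3p (chr4:156053916-156053937) lie within 1791 bases. In the GENCODE annotation their hairpins sit inside the genes Ttll10 and Gm13648 on the same strand. The hairpins of miR-200a and miR-200b overlap no exon of either gene and that of miR-429 overlaps an exon of Gm13648. miR-200c-3p (chr6:124718324-124718346) and miR-141-3p (chr6:124717917-124717938) lie within 430 bases, in the antisense gene Gm15884, and the miR-141 hairpin overlaps an exon of the unclassified transcript Gm29008. miR-183-5p (chr6:30169711-30169732), miR-96-5p (chr6:30169506-30169528) and miR-182-5p (chr6:30165962-30165986) span 3771 bases, and no other annotated gene overlaps their hairpins.

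Library totals were 3116421 to 6805989 counts in the EtOH group and 4210785 to 4768713 in the Control group. miRNAs held 6.96% to 10.1% of the counts in EtOH libraries and 16.8% to 27.7% in Control libraries. The protamine, transition protein and tail genes of late spermatids (Prm1, Prm2, Tnp1, Tnp2, Odf1, Smcp, Akap4) were found in every library. Their exon counts summed to 232 to 331 CPM, here on library totals, in EtOH libraries and 377 to 455 in Control libraries. Taken singly, Prm1, Odf1 and Smcp did not overlap between the groups, while Prm2, Tnp1, Tnp2 and Akap4 did. The share of all genes or exon features without such overlap was not counted. Of their 13 tested exons, 0 passed (edgeR adjusted p below 0.05), against 0.0217% of 4600 exon features. At an unadjusted p below 0.05, 2 of the 13 were lower in EtOH libraries, as were 154 of the 4600. EtOH replicate 2 stood apart in the summed fragments of 8 epididymal genes, with 17631 CPM, against 704 to 2539 in the other EtOH libraries and 356 to 489 in Control libraries. Crisp1, Cd52 and Adam7 held nearly all of that sum, with 12224, 3472 and 1922 CPM in EtOH replicate 2. Control replicate 2 stood apart in 4 muscle miRNAs, with 36635 CPM, against 1966 to 7610 in the other Control libraries. The level of each member is given below in CPM, counts scaled to 1 common depth, on library sizes adjusted by edgeR's TMM factors.

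The chromosome 4 miRNAs were the most abundant members, and their levels overlapped between the groups. miR-200b-3p had 1009, 958, 1082 and 471 CPM in EtOH replicates 1 to 4, against 719, 1060, 2760 and 1499 CPM in Control replicates 1 to 4. EtOH replicate 4 lay below every Control library and Control replicates 3 and 4 lay above every EtOH library. The means were 880 ± 278 CPM in EtOH and 1509 ± 893 CPM in Control libraries (SD, n = 4 each). The log2 fold change, EtOH over Control, was -0.78 (SE 0.46; edgeR quasi-likelihood test, adjusted p = 0.292), which is within the spread between libraries.

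miR-200a-3p, its neighbour with the other miR-200 seed, had 652, 707, 1559 and 598 CPM in EtOH libraries, against 446, 934, 1596 and 1414 CPM in Control libraries. EtOH replicate 3 stood at the level of the highest Control libraries while the other EtOH libraries lay between the 2 lowest. Its log2 fold change was -0.32 (SE 0.47; edgeR adjusted p = 0.73). miR-429-3p, the least abundant of the 3, had 261, 215, 336 and 117 CPM in EtOH libraries, against 160, 311, 385 and 299 CPM in Control libraries. The groups overlapped except for EtOH replicate 4 at the low end and Control replicate 3 at the high end. Its log2 fold change was -0.31 (SE 0.42; edgeR adjusted p = 0.704).

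miR-141-3p, from the chromosome 6 pair with miR-200c, gave no usable fold change. It had 1188, 1029, 0 and 0 counts in EtOH libraries, against 0, 1555, 2044 and 0 counts in Control libraries. The zeros fell in both groups and, within the EtOH group, in the 2 libraries whose titles carry the PO_EM form of identifier. A count of 0 allows up to 0.441 and 0.526 CPM of the library total in EtOH replicates 3 and 4, and up to 0.689 and 0.629 in Control replicates 1 and 4, by counting error alone. The row for the miR-141 hairpin, which takes reads outside the mature arms, was above 0 in those 4 libraries, with 7 and 7 counts in EtOH and 3 and 6 counts in Control libraries. In the libraries where miR-141-3p was above 0, it stood at 0.284 and 0.441 of the miR-200a-3p count in EtOH and at 0.51 and 0.36 in Control libraries.

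The miR-183 cluster was less abundant, with lower mean values in EtOH libraries for each of its 3 members. miR-182-5p had 150, 70.6, 135 and 65.6 CPM in EtOH libraries, against 93.6, 227, 144.99 and 179 CPM in Control libraries. EtOH replicates 2 and 4 lay below every Control library. Its log2 fold change was -0.61 (SE 0.42; edgeR adjusted p = 0.379).

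miR-183-5p had 72.9, 52.4, 80.6 and 32.6 CPM in EtOH libraries, against 76, 128, 101 and 133.3 CPM in Control libraries. Here 3 EtOH libraries lay below every Control library, and EtOH replicate 3 lay just above Control replicate 1. The means were 59.6 ± 21.6 CPM in EtOH and 110 ± 26.5 CPM in Control libraries (SD, n = 4 each), and the log2 fold change was -0.88 (SE 0.40; edgeR adjusted p = 0.177). miR-96-5p, the rarest member, had 33.7, 21.5, 48.2 and 18.7 CPM in EtOH libraries, against 23.2, 79.9, 59 and 47.9 CPM in Control libraries. Its log2 fold change was -0.78 (SE 0.46; edgeR adjusted p = 0.298), with Control replicates 1 and 4 inside the EtOH range.

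**Figure D1:**
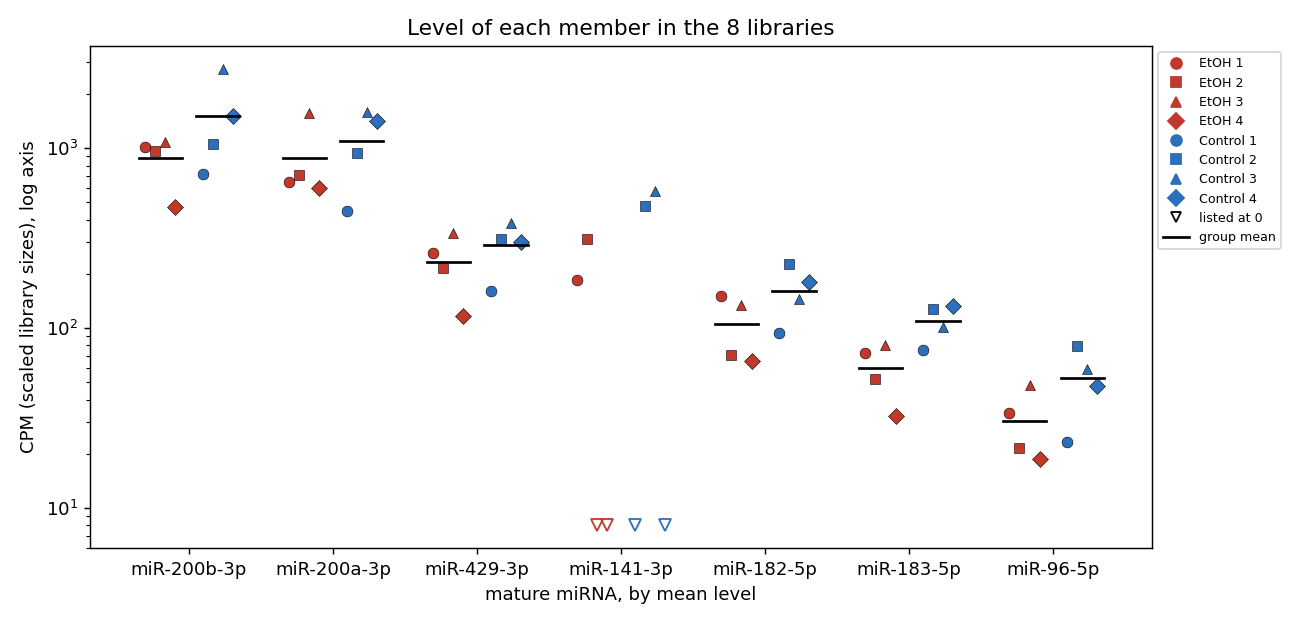
Level of each member in CPM (log axis) in the 4 EtOH libraries (red, left) and the 4 Control libraries (blue, right), with group means as black bars and open triangles for libraries listed at 0, drawn at the foot of the axis. The groups overlap for all 7 members, and miR-141-3p is at 0 in EtOH replicates 3 and 4 and Control replicates 1 and 4. No mean bar is drawn for miR-141-3p.

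None of the 7 members passed the test over all features, where 0.186% of 10234 features and 0.877% of the 228 miRNA features did (edgeR adjusted p below 0.05). One member, miR-183-5p, had an unadjusted p below 0.05, while 66.7% of those miRNA features were lower at that level. DESeq2 and limma voom called 0 of the 7 as well, against 17.1% and 6.4% of all features and 51.8% and 32.9% of miRNA features. In each of those tools miR-183-5p had an unadjusted p below 0.05 and no other member did. The lack of overlap between groups gave the same count: 0 of 7 members had every EtOH library below every Control library in CPM, against 48.7% of miRNA features.

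All 7 fitted values were below 0. Without miR-141-3p, whose fold change is not usable, the median of the other 6 members was -0.70, against -1.56 over all 228 miRNA features and -0.09 over all 10234 features. The 3 chromosome 4 miRNAs had a median of -0.32 and the miR-183 cluster one of -0.78. Of the miRNA features, 23 had a higher fitted value than miR-429-3p and 42 a higher one than miR-183-5p, the top and bottom of the members other than miR-141-3p. Without Control replicate 3, which held the most miR-200b-3p, the median of these 6 members was -0.46. Without EtOH replicate 2 it was -0.50, with no member called.

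Since the miRNA class as a whole held a smaller part of the EtOH counts, the members were also tested against the other miRNAs, by a fit on the miRNA class alone. On that scale the members had higher values in EtOH libraries, and none passed the test. As a share of miRNA counts, the 4 miR-200 members held 2.1%, 3.34%, 2.85% and 1.54% in EtOH libraries, against 0.621%, 0.778%, 2.45% and 1.63% in Control libraries. EtOH replicates 2 and 3 lay above every Control library, and Control replicates 1 and 2 below every EtOH library. The miR-183 cluster held 0.256%, 0.22%, 0.252% and 0.152% in EtOH libraries, against 0.0903%, 0.122%, 0.141% and 0.183% in Control libraries. The first 3 EtOH libraries lay above every Control library and EtOH replicate 4 lay among the Control libraries. Control replicate 2 lists let-7a-5p, an abundant miRNA with 5.06% to 8.91% of miRNA counts in the other 7 libraries, at 0. Where its reads were counted there was not tested, and the share of every other miRNA in that library depends on it.

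miR-429-3p stood furthest above the miRNA median. It held 0.259%, 0.328%, 0.322% and 0.152% of miRNA counts in EtOH libraries, against 0.0751%, 0.0869%, 0.178% and 0.152% in Control libraries. EtOH replicates 1 to 3 lay above every Control library and EtOH replicate 4 lay level with Control replicate 4. The log2 fold change within miRNAs was 1.02 (SE 0.41; edgeR adjusted p = 0.428). miR-182-5p held 0.15%, 0.107%, 0.129% and 0.0855% in EtOH libraries, against 0.0438%, 0.0636%, 0.0669% and 0.0913% in Control libraries. Control replicate 4 was the only Control library inside the EtOH range, and the log2 fold change was 0.77 (SE 0.33; edgeR adjusted p = 0.445).

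miR-200a-3p had a log2 fold change within miRNAs of 0.92 (SE 0.49; edgeR adjusted p = 0.622), and miR-200b-3p one of 0.52 (SE 0.55; edgeR adjusted p = 0.814). miR-183-5p and miR-96-5p had 0.48 (SE 0.35) and 0.60 (SE 0.37; edgeR adjusted p = 0.72 and 0.63). So 0 of 7 members passed within miRNAs, where 0.415% of 241 features did, and 2 of 7 were higher at an unadjusted p below 0.05, where 9.13% were. DESeq2 also called 0 of the 7, where 2.9% of the 241 features were called, and 2 of 7 were higher at an unadjusted p below 0.05, where 8.3% were. limma voom called 0 of the 7, where 0.415% were called, and 1 of 7 was higher at an unadjusted p below 0.05, where 9.54% were. No member had its groups apart on the share of miRNA counts, while 5.81% of miRNA features had every EtOH library above every Control library. The median over the 6 members other than miR-141-3p was 0.69, against -0.09 over the 241 miRNA features. It was 0.48 without Control replicate 1 and 0.72 without EtOH replicate 2.

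**Figure D2:**
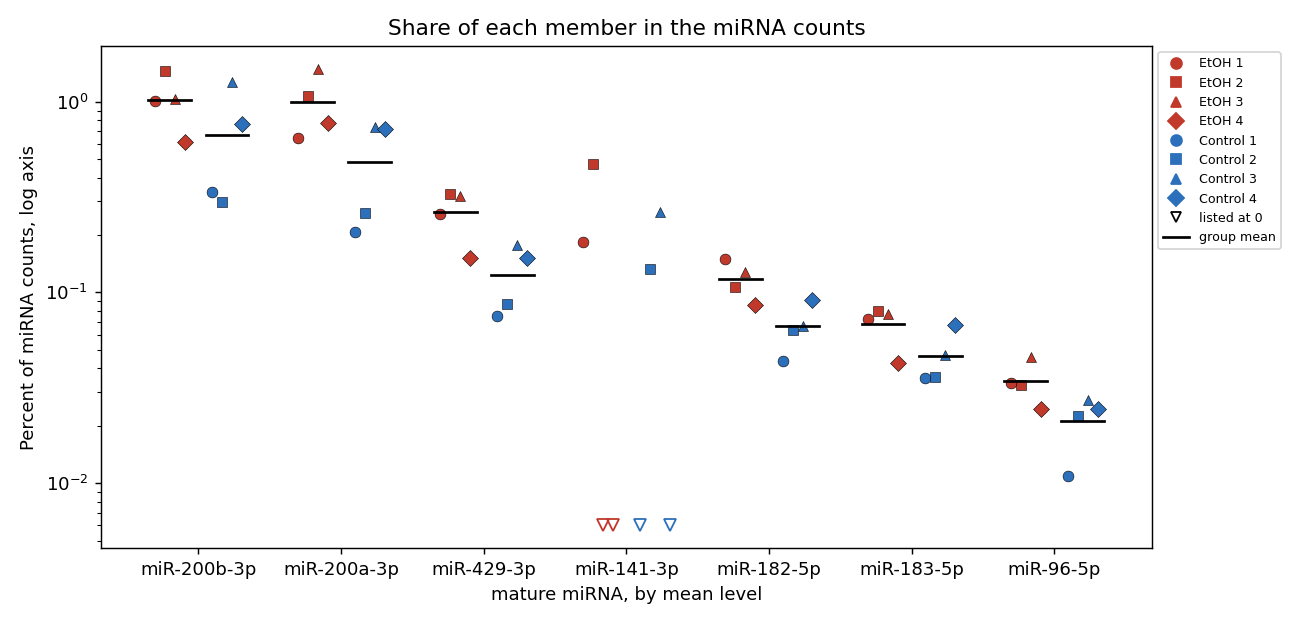
Share of each member in the miRNA counts, in percent (log axis), in the 4 EtOH libraries (red, left) and the 4 Control libraries (blue, right), with group means as black bars and open triangles for libraries listed at 0, drawn at the foot of the axis. For miR-429-3p, EtOH replicates 1 to 3 lie above every Control library and EtOH replicate 4 lies at 0.152%, level with Control replicate 4. No mean bar is drawn for miR-141-3p.

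**Figure D3:**
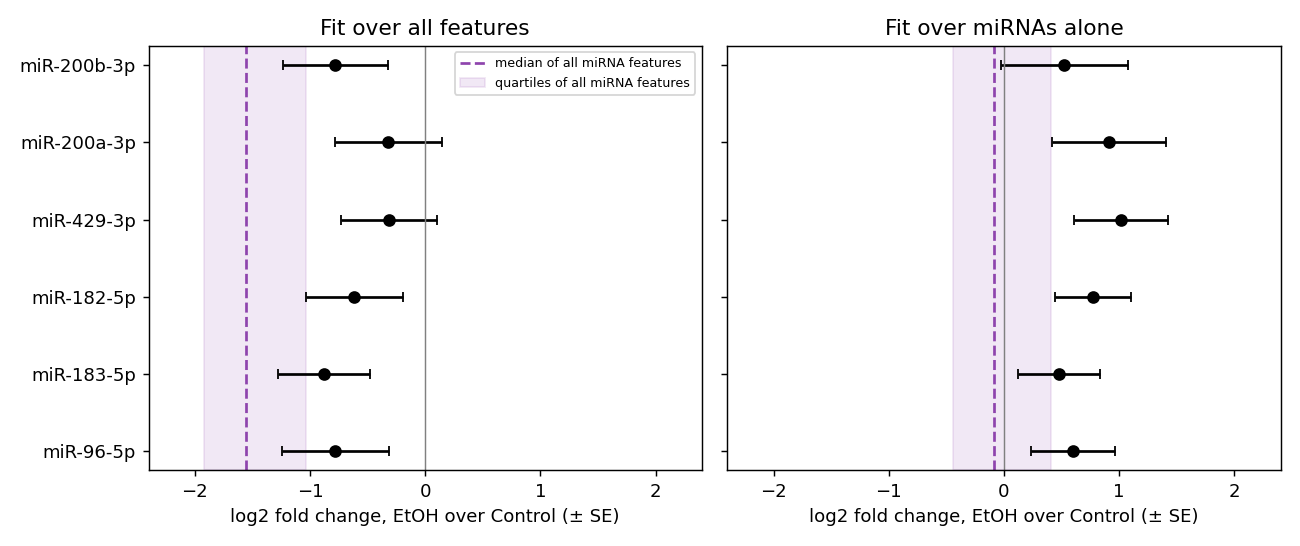
Log2 fold change, EtOH over Control, with its SE for the 6 members with counts in every library, from the fit over all features (left) and over miRNAs alone (right). The dashed line and band are the median and quartiles of all miRNA features. The 6 values lie below 0 on the left, between -0.88 and -0.31, and above 0 on the right, between 0.48 and 1.02, and above the miRNA median in both.

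The order of the members was much alike in both groups. miR-200a-3p was above miR-429-3p, miR-182-5p above miR-183-5p and miR-183-5p above miR-96-5p in all 8 libraries. miR-200b-3p was above miR-200a-3p in 2 of 4 EtOH libraries and in 4 of 4 Control libraries, so these neighbours were not apart beyond their spread. miR-429-3p was above miR-141-3p in 5 of 8 libraries, including the 4 where miR-141-3p was at 0. All are mature miRNAs of 22 to 25 bases, so their counts were compared without a length correction. Ranked by mean share of miRNA counts among 663 mature miRNA names, miR-200b-3p was at 20 in EtOH and 28 in Control libraries, miR-429-3p at 46 and 65, and miR-96-5p at 98 and 116.

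Within each polycistron the proportions were compared by library. Of the 3 miRNAs of the miR-183 cluster, miR-182-5p made up 58.5%, 48.8%, 51.1% and 56.1% in EtOH libraries, against 48.6%, 52.2%, 47.5% and 49.8% in Control libraries. The groups overlapped, with means of 53.7% ± 4.45 in EtOH and 49.5% ± 2.02 in Control libraries (SD, n = 4 each). miR-96-5p made up 15.6% ± 2.17 in EtOH and 15.7% ± 3.63 in Control libraries (SD, n = 4 each). miR-183-5p made up 30.8% ± 3.85 in EtOH and 34.8% ± 4.35 in Control libraries (SD, n = 4 each). The proportions of all 3 products thus overlapped between the groups. Their summed level ran from 117 to 263 CPM in EtOH and from 193 to 435 CPM in Control libraries.

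The chromosome 4 miRNAs were less even. The ratio of miR-200a-3p to miR-200b-3p was 0.646, 0.738, 1.44 and 1.27 in EtOH libraries, against 0.62, 0.881, 0.578 and 0.943 in Control libraries. EtOH replicates 3 and 4, both with titles of the PO_EM form and both with miR-141-3p at 0, were the only libraries with more miR-200a-3p than miR-200b-3p. Control replicates 1 and 4 also had miR-141-3p at 0, with ratios of 0.62 and 0.943. With miR-141-3p added to miR-200a-3p, whose sequence it nearly shares, the ratio to miR-200b-3p was 0.83, 1.06, 1.44 and 1.27 in EtOH libraries, against 0.62, 1.33, 0.786 and 0.943 in Control libraries. EtOH replicates 3 and 4 then lay on either side of Control replicate 2. Whether reads of miR-141-3p were counted elsewhere was not tested. miR-429-3p made up 11.5% ± 1.53 of the chromosome 4 counts in EtOH and 10.8% ± 2.47 in Control libraries (SD, n = 4 each).

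**Figure D4:**
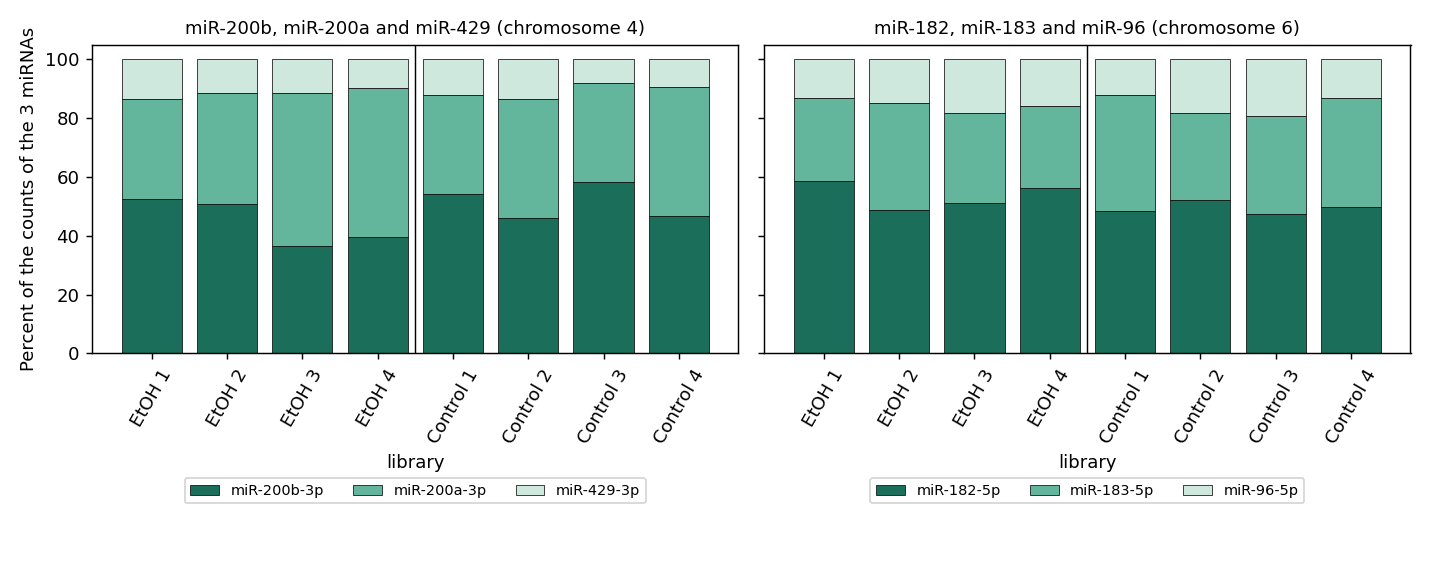
Percent of the counts of each 3-miRNA cluster held by each product, per library, with the 4 EtOH libraries left of the vertical line and the 4 Control libraries right of it. miR-200a-3p exceeds miR-200b-3p in EtOH replicates 3 and 4, at 52.3% and 50.4% of the cluster, while miR-182-5p is the largest part of the miR-183 cluster in all 8 libraries.

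The other products of the same precursors were rare. Of the opposite arms, miR-141-5p, miR-183-3p and miR-200c-5p were measured, with 36, 12 and 1 counts over all 8 libraries. miR-141-5p was found in EtOH replicate 2 (15 counts) and Control replicate 1 (21 counts) only. The 8 hairpins, whose rows take reads outside the mature arms, had 153 counts in all, 91 in EtOH and 62 in Control libraries, which is 0.15% of the 101823 counts of the members. None of these products reached the 100 counts set for naming with a test.

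The pattern of each member's share of miRNA counts over the 8 libraries was set against those of other miRNAs. For 4 of 6 members the nearest was a fellow member. It was miR-429-3p for miR-200a-3p and miR-200b-3p, miR-182-5p for miR-96-5p and miR-183-5p for miR-182-5p. For miR-429-3p and miR-183-5p it was miR-10a-5p. With the members left out of the candidates, the nearest of 96 mature miRNAs to the miR-200 sum and to the miR-183 cluster sum were miR-10a-5p and miR-10b-5p, which are encoded in the Hox gene clusters. Likeness was measured as the root mean square difference of centred log2 shares, which ran from 0.23 to 0.37 for the single members. It was 0.37 for both miR-10 miRNAs against the miR-200 sum, and 0.27 and 0.34 against the miR-183 cluster sum. The medians over the 96 were 0.99 and 0.72. The next in order were miR-148a-3p (0.47) for the miR-200 sum and miR-30a-3p (0.45) for the miR-183 cluster. miR-10a-5p held 2.21% ± 0.742 of miRNA counts in EtOH and 1.29% ± 0.382 in Control libraries (SD, n = 4 each). The measure takes in the group difference and the shared denominator, and is a description.

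Messenger RNA fragments of the pathway were sparse. Values here are exon counts summed per gene, in CPM on library totals. The miR-200 targets Zeb1 and Zeb2 had 0.822 ± 0.746 and 0.368 ± 0.292 in EtOH and 1.52 ± 0.581 and 1.53 ± 0.329 in Control libraries (SD, n = 4 each). These values rest on few reads, since 3 counts are 0.441 to 0.963 CPM in EtOH and 0.629 to 0.712 CPM in Control libraries. No exon of the 5 repressors of the epithelial state (Zeb1, Zeb2, Snai1, Snai2, Twist1) had enough counts to be tested.

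Of 9 genes of the epithelial state, 4 had an exon tested, 0 of the 4 exons passed (edgeR adjusted p below 0.05, against 0.0217% of 4600 exon features) and 2 were higher at an unadjusted p below 0.05, where 36.8% of exon features were. Their median log2 fold change was 1.13, against 0.70 over all exon features. Exons with enough counts in the EtOH libraries alone could enter the test. Cdh1, the main adhesion gene of epithelia, had 36.8, 150, 18.2 and 39.3 in EtOH libraries, against 5.51, 20.2, 11.3 and 12 in Control libraries. EtOH replicate 2 was the highest and EtOH replicate 3 lay below Control replicate 2. The tested exon had a log2 fold change of 1.57 (SE 0.51; edgeR adjusted p = 0.0787).

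Epcam, an epithelial surface glycoprotein, had 23.9, 136, 15 and 23.3 in EtOH libraries, against 3.67, 9.26, 8.52 and 8.6 in Control libraries. Every EtOH library was above every Control library, but the share of exon features with such a gap was not counted. The tested exon had a log2 fold change of 1.82 (SE 0.54; edgeR adjusted p = 0.0611), against a median of 0.70 over all exon features. Esrp1, a splicing regulator of epithelia, and Grhl2, a transcription factor of epithelia, had exons at 0.70 (SE 0.37) and 0.63 (SE 0.42; edgeR adjusted p = 0.24 and 0.36). Without a tested exon, Esrp2 had 8.83 ± 7.86 in EtOH and 2.11 ± 1.41 in Control libraries, Elf3 13.6 ± 19 and 1.69 ± 0.46, Ap1m2 8.75 ± 9.19 and 1.1 ± 0.826, and Ovol1 1.35 ± 0.739 and 1 ± 0.495 (SD, n = 4 each, EtOH then Control). EtOH replicate 2 held the highest value of each of these 4 genes.

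Of 6 other genes linked to miR-200, only Rhoa, a regulator of the actin skeleton, had a tested exon. Its log2 fold change was 1.79 (SE 0.50; edgeR adjusted p = 0.0547), against a median of 0.70 over all exon features. Rhoa had 33.7 ± 28 in EtOH and 6.68 ± 0.827 in Control libraries (SD, n = 4 each). Fn1, an extracellular matrix gene, had 3.23 ± 1 in EtOH and 7.98 ± 3.66 in Control libraries. Vim, the mesenchymal intermediate filament gene, had 1.2 ± 0.428 and 2.62 ± 1.89. Qk had 6.37 ± 2.12 and 4.52 ± 1.63, and Suz12 5.57 ± 4.64 and 2.66 ± 1.15 (SD, n = 4 each, EtOH then Control). EtOH replicate 2 held the highest value of Rhoa, Qk and Suz12, at 74.8, 8.98 and 12.5.

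Markers of general epithelium (Krt8, Krt18, Krt19, Epcam, Cdh1, Cldn7) were present in all 8 libraries, 6 of 6, and summed to 198, 869, 75.4 and 173 in EtOH libraries, against 28.9, 61, 44.5 and 50.3 in Control libraries. All 10 of their tested exons were higher at an unadjusted p below 0.05, where 36.8% of exon features were. Of the 10, 0 passed the adjusted threshold (edgeR), where 0.0217% did. Exons could enter the test through counts in the EtOH libraries alone, which favours exons that are higher there. Krt8 and Krt19 gave 3 exons each, so the 10 are not separate results. In EtOH replicate 2, where this sum was highest, the miR-200 members stood at 2192 CPM, against 2106, 2977 and 1185 CPM in the other EtOH libraries and 1325, 2780, 5315 and 3212 CPM in Control libraries. Their share of miRNA counts in EtOH replicate 2 was 3.34%, the highest of the 8 libraries. miRNAs held 6.96% of the counts of that library, the lowest of the 8. Of 8 epididymal genes, Crisp1, Adam7 and Cd52 had tested exons, 12 in all, of which Crisp1 gave 8. Each was higher at an unadjusted p below 0.05 and none was called, against those same 36.8% and 0.0217% of exon features. These exons too could enter through the EtOH libraries alone. Without a tested exon, Lcn5, Lcn8, Lcn9 and Defb20 were at 0 in 2, 3, 4 and 2 libraries. Spink11 was above 0 in all 8, with 3.83 ± 3.51 in EtOH and 1.79 ± 0.778 in Control libraries (SD, n = 4 each). The part of epithelial material in the members' levels was not tested, and in these bulk libraries fewer cells of a type and less RNA per cell cannot be told apart. miRNAs of muscle, red blood cells and leukocytes (4, 3 and 4 measured of 4, 3 and 5 listed) summed to 1714 to 3981, 46.2 to 89.6 and 26 to 139 CPM in EtOH libraries, against 1966 to 36635, 73.2 to 870 and 214 to 312 in Control libraries. The leukocyte sum includes miR-142a-5p, at 0 in EtOH replicates 1 and 2 and Control replicate 2, and at 88.4 to 238 CPM elsewhere. Of the 228 miRNA features, 66.7% were lower in EtOH libraries at an unadjusted p below 0.05 (edgeR), and 48.7% were lower without overlap in CPM.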

How the data were processed

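Per the labels, read 2 was not used, and the submitters' processing notes name cutadapt with no version. No source used here states the aligner, genome build, annotation or treatment of multiply matching reads. The deposited values are raw counts per annotated feature, whole numbers in 1 table for the 8 libraries. Columns were assigned to samples through their titles, and groups come from the treatment label. Replicate numbers follow accession order.

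Features passing filterByExpr (minimum count 10, minimum total 15) were scaled with TMM factors and tested by edgeR 4.0.16 (quasi-likelihood, R 4.3.3), with p-values adjusted by the Benjamini-Hochberg method over the 10234 tested. The miRNA class was fitted again alone (241 features). SEs are the log2 fold change over the root of F. CPM use the scaled library sizes of the first fit, and gene and marker sums use library totals. All members were named, the nearest patterns by the rule stated beside them among miRNAs with a mean count of at least 100 and no zero, and pathway genes where a group mean reached 1 CPM. DESeq2 1.42.0 and limma 3.58.1 were alternatives. Steps were tested on simulated data. Limits from a count of 0, set at 3 counts, cover counting error only. Members, lists and tests were chosen with earlier results of these data known. miRNA sequences and coordinates come from RefSeq (GRCm38.p6), where all 8 names matched, and gene overlaps from GENCODE on the same genome.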

Additional observations from a re-analysis of the deposited data

Results flagged for a closer look

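One value stood apart from its group. miR-200a-3p in EtOH replicate 3, at 1559 CPM, was far from the other EtOH libraries, which lay between 598 and 707 CPM. The gap to the nearest library was 0.886 of the group's range, above Dixon's critical value for 4 samples. It was the only one of the 36 groups examined (7 members and the 2 sums, on 2 scales, in 2 groups), and chance flags about 1 in 20. The same library had miR-141-3p, which is the same as miR-200a-3p at 20 of 22 positions, at 0 counts, as did EtOH replicate 4, where miR-200a-3p had 598 CPM. Control replicates 1 and 4 also had miR-141-3p at 0 counts, with miR-200a-3p at 446 and 1414 CPM. With the counts of both miRNAs summed, the EtOH libraries had 837, 1018, 1559 and 598 CPM, against 446, 1410, 2170 and 1414 CPM in Control libraries. Their part in the high value was not tested.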

How the results depend on the processing

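No member passed the threshold under any alternative run, over all features or within miRNAs. With each library left out in turn the count was 0 in both fits, the median of the 7 members, miR-141-3p included, ran from -0.92 to -0.30 over all features and from 0.37 to 1.06 within miRNAs, and the log2 ratio of mean shares of miRNA counts from 0.60 to 1.28 for the miR-200 family and from 0.56 to 0.90 for the miR-183 cluster. With all counts as the denominator those ratios were -0.32 and -0.48, against 0.84 and 0.71 with miRNA counts, so their direction depends on the denominator. With library size alone as the scale, the member median was -0.46 and the median of all features 0.18. With only the EtOH libraries titled PO_EM set against Control, miR-200a-3p was at 0.14 over all features, and with only those titled PO_M it was at -0.87. Within miRNAs, miR-141-3p ran from -0.67 (without EtOH replicate 2) to 1.87 (without Control replicate 3) as single libraries were left out, and was at -12.66 with the PO_EM libraries alone, where its EtOH counts are all 0. Members with a shared seed, summed, gave -0.44 (miR-200a-3p plus miR-141-3p) and -0.69 (miR-200b-3p plus miR-429-3p) over all features. Leaving out miR-141-3p, an alternative chosen after seeing the data, the member median was -0.70 over all features, against -0.78 with it, and 0.69 within miRNAs, against 0.72. Over all features 19 passed, against 1747 with DESeq2, 655 with limma voom, 1642 with no filter and 3208 with log2 total count as a covariate, where miR-183-5p had an edgeR adjusted p of 0.0504. That count was 11 at a mean count of at least 10, 9 with median-of-ratios factors or library size alone, 1 on piRNA cluster totals, and 2572 with the PO_M libraries alone. Without EtOH replicates 1 to 4 it was 346, 487, 2332 and 3, and without Control replicates 1 to 4 it was 8, 10, 8 and 20. Within miRNAs 1 passed, against 7 with DESeq2, 4 with no filter and 0 with the PO_EM libraries alone. No paired analysis was possible because the replicate numbers follow accession order and pair nothing. miR-96-5p, the rarest member, had 71 to 318 counts per EtOH library and 88 to 261 per Control library.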
